A study of Homo sapiens with 6 samples.

Results

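MiR-224 and miR-452 are a pair of miRNAs whose hairpins lie within GABRE, the gene of the epsilon subunit of the GABA-A receptor. The members described here are the probes for both arms of both hairpins, the 5p and 3p arms of miR-224 and the 5p and 3p arms of miR-452, which are 4 of the 2555 human miRNA probes on the array. They were selected on measured values of these arrays, since miR-224-5p was among the miRNAs that were lower with TGF-β with no overlap between the groups, so its values in that comparison are given as a description and carry no test. The data came from HuCCT1 cells (written HuccT1 in the sample labels), an established human cholangiocarcinoma (CCA) cell line without a genetic change named in the labels, in 2 groups of 3 arrays. The control group received 0 ng/ml and the TGF-β group 10 ng/ml of the cytokine TGF-β, an inducer of epithelial-mesenchymal transition (EMT), and RNA was taken after 72 h in each group. Each array carried the Cy5-labelled total RNA of 1 sample, and the labels do not say whether the samples of a group came from separate cultures, so the spread between arrays may be technical.

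An miRNA is cut from a hairpin precursor, and either strand of the hairpin stem, the 5p arm or the 3p arm, can be loaded into the silencing complex. Bases 2 to 8 of the loaded strand, the seed, pair with target mRNAs. MiRNAs in an intron of a host gene are often transcribed together with it, and miR-224 is best known for its high levels in hepatocellular carcinoma and for a link to TGF-β signalling through Smad4 in ovarian granulosa cells. None of this background was measured here, and GABRE mRNA is not on a miRNA array.

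The 4 mature sequences are shown first because each is what its probe is named for, and because the seeds can be compared between arms. Targets were not examined. They were read from RefSeq (GRCh38.p14) and are written 5′ to 3′ with the seed in capitals.
hsa-miR-224-5p: uCAAGUCAcuagugguuccguuuag
hsa-miR-224-3p: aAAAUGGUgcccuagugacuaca
hsa-miR-452-5p: aACUGUUUgcagaggaaacuga
hsa-miR-452-3p: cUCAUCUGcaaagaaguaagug
All 4 lie on the minus strand of chromosome X, miR-224-5p at chrX:151958628-151958652 and miR-224-3p at chrX:151958584-151958606, miR-452-5p at chrX:151959678-151959699 and miR-452-3p at chrX:151959634-151959655. The mature forms are 25, 23, 22 and 22 bases long in the order shown, and 44.0%, 43.5%, 40.9% and 40.9% of their bases are G or C. No pair of the 4 shares a seed. The longest run of identical bases was 6 between the arms of miR-224 and 3 or 4 in every other pair.

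The hairpins are annotated as MIR224, of 81 bases at chrX:151958578-151958658, and MIR452, of 85 bases at chrX:151959628-151959712. The hairpins are printed next with both mature arms in capitals, to show the opposite strands of each stem from which the arms are cut.
MIR224: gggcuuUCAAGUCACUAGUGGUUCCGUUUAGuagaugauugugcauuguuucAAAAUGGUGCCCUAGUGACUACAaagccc
MIR452: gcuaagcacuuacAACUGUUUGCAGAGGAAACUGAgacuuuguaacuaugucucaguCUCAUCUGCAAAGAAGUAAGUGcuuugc
The hairpins are separated by 969 bases. GABRE spans chrX:151953124-151974676 on the same strand, and the ends nearest to its start lie 14964 bases into the gene for MIR452 and 16018 bases for MIR224. The table used gives no exons, so the place of the hairpins in an intron is background. MIR224 and MIR452 are the only other genes of that table that lie wholly within GABRE. Of the 2370 mature human miRNAs in it, 2 others have the seed of miR-452-5p, miR-4676-3p and miR-892c-3p, and none has the seed of any other member. Both relatives have probes on the array, and neither was detected on any of the 6 arrays.

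Of the 4 arms, 1 was detected in HuCCT1 cells. MiR-224-5p was detected on all 6 arrays, and miR-224-3p, miR-452-5p and miR-452-3p were detected on none. Detection here means that a spot exceeded the blank mean, the average brightness of the 229 blank spots on the same array, by over 2 of their SD. Over all human probes, 292 were detected on all 6 arrays (11.4%) and 2047 on none, and of the 146 matched probes of X-chromosome miRNAs, 13 were detected on all 6 arrays (8.90%). Between 327 and 464 probes were detected per array.

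On control arrays 1, 2 and 3 the spot of miR-224-5p read 52.1, 79.8 and 44.4 in brightness, where the blank spots had a mean of 30.7, 54.8 and 29.5. On TGF-β arrays 1, 2 and 3 its brightness was 106, 106 and 57.6, over blank means of 82.3, 76.2 and 42.5. In units of the SD of the blank spots, it therefore exceeded their mean by 11.9, 3.67 and 8.39 in the control group and by 3.11, 6.19 and 3.79 in the TGF-β group. The signal was nearest to the detection limit on TGF-β array 1, followed by control array 2, and each of the 6 values exceeded at least 99.1% of the blank spots of its array. Of the 5 spots around it on the grid, none was detected on 5 of the arrays. On TGF-β array 3 the spot of miR-223-3p, a miRNA of blood cells, was detected there at a brightness of 68.2, above miR-224-5p itself, and its part in the miR-224-5p value of that array was not tested.

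MiR-224-3p, the opposite arm of the same hairpin, had a brightness below the blank mean on all 6 arrays, with a distance from it of -3.17 to -1.05 SD in the control group and of -2.48 to -0.828 SD in the TGF-β group. MiR-452-5p had values of -0.471, -0.048 and -1.73 SD from the blank mean in the control group and at -3.55, -1.40 and -0.654 SD in the TGF-β group. MiR-452-3p had values of -3.72 to -1.44 SD in the control group and of -2.91 to -1.75 SD in the TGF-β group. On each array, 90.4% to 94.8% of the undetected human probes were dimmer than the blank mean, and among those undetected probes miR-452-5p was brighter than 85.3% to 89.9% on the control arrays and 5.97% to 82.3% on the TGF-β arrays. Set against the 178 spots that carry no probe, which were dimmer on average than the blank spots on each array, the 3 arms also stayed below 2 SD on every array, and the highest value was 1.06 SD for miR-452-5p on a control array. This second limit was chosen after the values were seen. By these limits a level of the 3 arms was not detectable on these arrays, and no direction under TGF-β can be given for them. On the normalized scale used below, the limit of detection was 1.83, 4.30 and 2.08 for the 3 control arrays and 3.68, 2.09 and 3.85 for those with TGF-β, and a signal below these values could not have been seen.

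**Figure D1:**
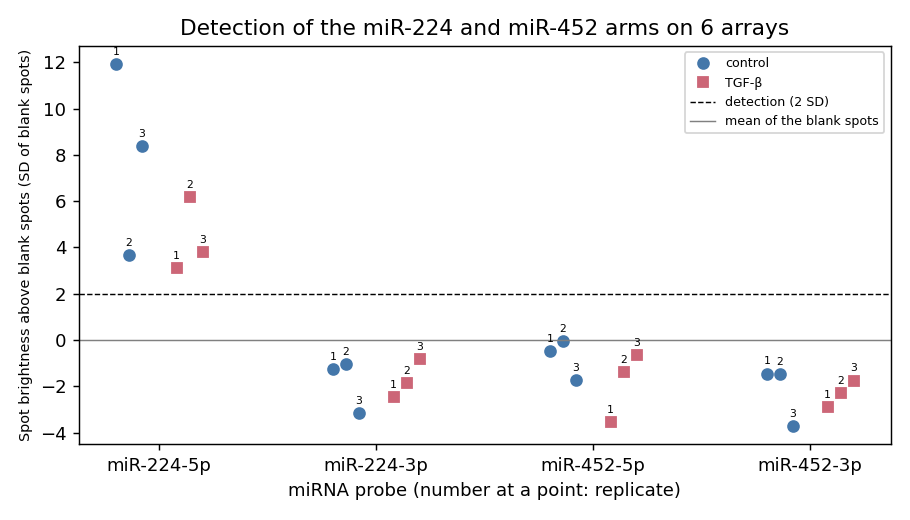
Brightness of the 4 probes on each array, as the distance from the blank mean in SD of the blank spots (vertical axis), for control (circles) and TGF-β (squares) arrays, with the replicate number at each point. The 6 points of miR-224-5p lie between 3.11 and 11.9 SD, above the dashed detection limit of 2 SD, and all 18 points of the other 3 arms lie below 0.

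The difference between the arms of miR-224 was a common one on these arrays. Of 802 hairpin names with a probe for each arm, 156 had at least 1 arm detected on all 6 arrays. For 130 of the 156, the opposite arm was detected on none. In 95 of these 130, including miR-224, the detected arm was the 5p arm, and in 35 it was the 3p arm. Both arms were detected on all 6 arrays for 8 hairpin names. For 531, including miR-452, neither arm was detected on any array. Brightness also depends on how well a probe binds, so it does not give the relative amounts of the arms.

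To compare the groups, brightness above the blank mean was multiplied by a factor for each array that brought the median of the 292 commonly detected probes to 25. On this normalized scale control arrays 1, 2 and 3 gave 10.9, 7.88 and 8.74 for miR-224-5p, and TGF-β arrays 1, 2 and 3 gave 5.72, 6.46 and 7.30. Every control array lay above every TGF-β array, which is the property for which the pair was chosen. The mean was 9.17 ± 1.55 (SD, n = 3) in the control group and 6.49 ± 0.794 (SD, n = 3) in the TGF-β group, a ratio of means of 0.708, which is above the 0.67 that the study used as its limit for a lower miRNA. The log2 change was -0.49 with a standard error of 0.21. The groups were separated by 0.582 units of normalized signal, between 7.88 on control array 2 and 7.30 on TGF-β array 3. This distance was smaller than 1 SD of the blank spots on the same scale, which was 2.15 on control array 2 and 1.93 on TGF-β array 3. In bulk RNA, fewer cells with miR-224-5p and less of it per cell cannot be told apart.

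Expressed miRNAs were those detected on every array of the control group, of the TGF-β group or of both, and the 322 of them with a value on all 6 arrays were compared with limma. Of these, 9 (2.8%) were lower with TGF-β with no overlap between the groups and 23 (7.14%) were higher with no overlap. The rule used that contrast, so the values of miR-224-5p in it are a description. With limma and Benjamini-Hochberg adjustment, 0 of 322 passed an adjusted p of 0.05, 21 had an unadjusted p under 0.05, and the methods' t-test gave 1 after adjustment, miR-4521 (adjusted p = 0.019, singled out here once the values were known), and no member. Among the 7 falls without overlap that were detected on all 6 arrays, the log2 change ran from -0.78 for miR-6808-5p to -0.29 for miR-5001-5p. The distance between the groups on the log2 scale ran from 0.03 for miR-7109-5p to 0.24 for miR-6808-5p, and was 0.11 for miR-224-5p.

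The separation of the groups depended on the scaling. Before any scaling, the brightness of miR-224-5p above the blank mean was 21.3, 24.98 and 14.9 in the control group and 23.7, 30.3 and 15.1 in the TGF-β group. The groups overlapped, and the mean of 23.0 ± 7.62 (SD, n = 3) with TGF-β was above that of 20.4 ± 5.11 (SD, n = 3) in the controls. The median log2 change of all 322 miRNAs was 0.66 without scaling and 0.01 with it. MiR-224-5p thus lay 0.51 below the median of the expressed miRNAs on the log2 scale in both cases, because every miRNA on an array is multiplied by the same factor. The authors' normalized values set the median of the miRNAs listed on each array to 25. In these values miR-224-5p was at 28.8, 11.7 and 15.8 in the control group and at 7.70, 14.3 and 10.1 in the TGF-β group. Here the groups overlapped, as TGF-β array 2 lay above control array 2. The means were 18.8 ± 8.93 (SD, n = 3) and 10.7 ± 3.34 (SD, n = 3), and their ratio was 0.57, below the limit of 0.67. The other 3 arms were not listed on any array in these values. Of the 303 miRNAs listed on all 6 arrays there, 2 (0.66%) were lower with no overlap, and the share of miRNAs with a log2 change below 0 was 82.8%, against 48.8% with the common probes.

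**Figure D2:**
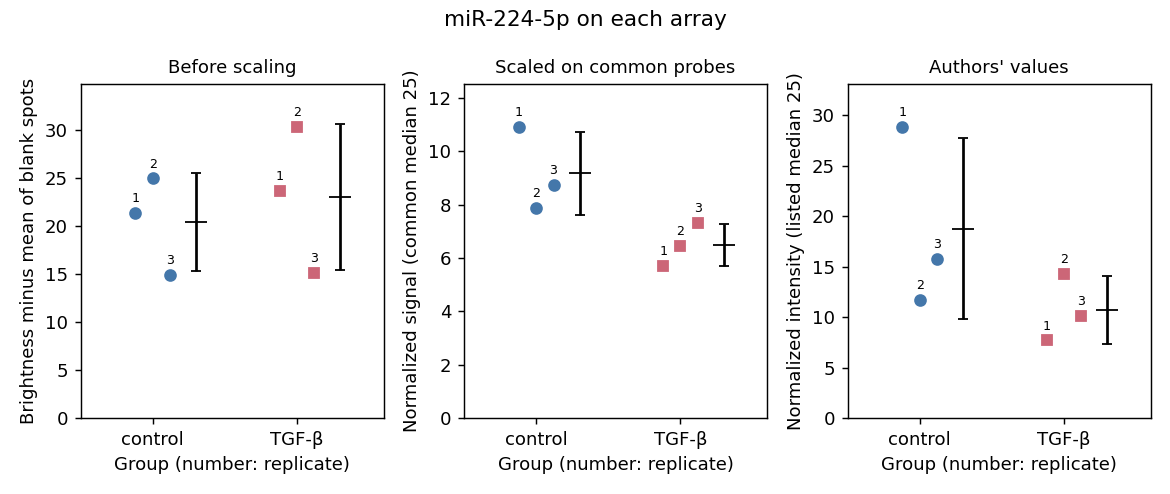
Signal of miR-224-5p on each array (points, with the replicate number) and the mean with SD of each group (black) before scaling, after scaling on the commonly detected probes, and in the authors' normalized values. The groups overlap in the left and right panels and are separate in the middle panel, where the control arrays lie between 7.88 and 10.9 and the TGF-β arrays between 5.72 and 7.30.

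The scanner output also holds a local background for each spot, and for miR-224-5p it was close to the spot itself. On the control arrays the local background was 46.5, 65.8 and 38.7, which is 5.61, 14.01 and 5.68 below the spot. On TGF-β arrays 2 and 3 it was 0.802 and 8.77 below the spot, and on TGF-β array 1 it was 114, which is 7.55 above the spot. Subtraction of the local background thus left no signal of miR-224-5p on TGF-β array 1. With TGF-β the mean distance above the local background, before scaling, was 0.676 ± 8.16 (SD, n = 3) for miR-224-5p. It was 8.28 ± 8.61, 11.3 ± 12.3 and 17.9 ± 13.0 (SD, n = 3) for miR-224-3p, miR-452-5p and miR-452-3p. In the control group it was 8.43 ± 4.83 (SD, n = 3) for miR-224-5p. For the others in that order it was 5.82 ± 4.29, 7.73 ± 4.80 and 10.6 ± 9.82 (SD, n = 3). The detection of miR-224-5p alone thus rests on the blank spots and the spots without a probe, not on the local background. A high local background was common to bright spots. Its median over detected probes was 44.1 on control array 1, against 24.3 over probes that were not detected, and on the 6 arrays between 11 and 91 of the detected probes had a local background above the spot.

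The sample labels name no chip, and chips were inferred from a code in the name of each scanner output. By this code TGF-β array 1 shared its chip with the 3 control arrays, apart from TGF-β arrays 2 and 3. Within the first chip, rescaled on the 4 arrays alone, the log2 change of miR-224-5p was -0.74 with a standard error of 0.26, from 1 TGF-β array against 3 control arrays. With the chip as a block in the fit it was -0.67 with a standard error of 0.28. The second chip held TGF-β arrays only and gives no comparison. MiR-224-5p was lowest on TGF-β array 1, the array on which it lay nearest to the detection limit, and the log2 change was -0.42 without that array.

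**Figure D3:**
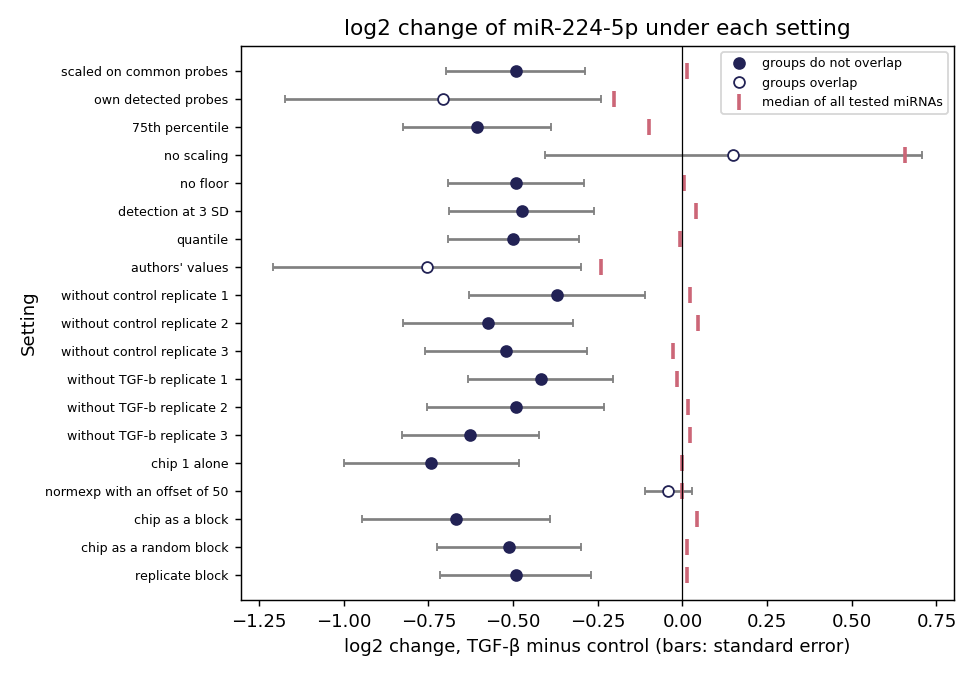
The log2 change of miR-224-5p (points, TGF-β minus control, with standard errors) under each way of processing, and the median log2 change of all tested miRNAs under the same processing (red marks). Filled points mark settings in which the groups do not overlap, where the fits with a block use the values of the first line. The change runs from -0.75 in the authors' values to 0.15 without scaling, where the median mark lies at 0.66.

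The pattern of miR-224-5p over the 6 arrays was set against those of the 291 other expressed miRNAs that were detected on all of them. The measure was the root mean square difference of log2 signals after each miRNA's mean over the arrays had been subtracted, so that 0 would be an identical pattern and 0.30 is what a miRNA with the same level on all 6 arrays would have. The median difference was 0.41, and the smallest was 0.15, for both miR-4417 and miR-6826-5p. MiR-4723-5p followed at 0.22. The array values of miR-4417 were 18.9, 14.8 and 18.9 in the control group and 12.9, 14.3 and 16.6 in the TGF-β group, with overlap between the groups. Its log2 change was -0.26 (limma adjusted p = 0.99, standard error 0.20), or 0.38 with no scaling. MiR-6826-5p was at 14.9, 11.3 and 16.1 in the control group and at 9.21, 10.3 and 10.1 in the TGF-β group, without overlap, and its log2 change was -0.50 (limma adjusted p = 0.68, standard error 0.20), or 0.14 with no scaling. The log2 change of miR-4723-5p was -0.31 (limma adjusted p = 0.99, standard error 0.27), or 0.33 with no scaling. Relative to the median of all expressed miRNAs, miR-6826-5p and miR-4723-5p were at -0.52 and -0.32 in both cases, and miR-4417 was at -0.27. RefSeq places miR-6826-5p on chromosome 3 and miR-4723-5p on chromosome 17, away from GABRE, and miR-4417 could not be placed. These likenesses are over 6 arrays that share a scaling and describe these arrays only. MiR-452-5p, the partner of miR-224-5p within GABRE, could not be placed in this order because it was not detected.

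**Figure D4:**
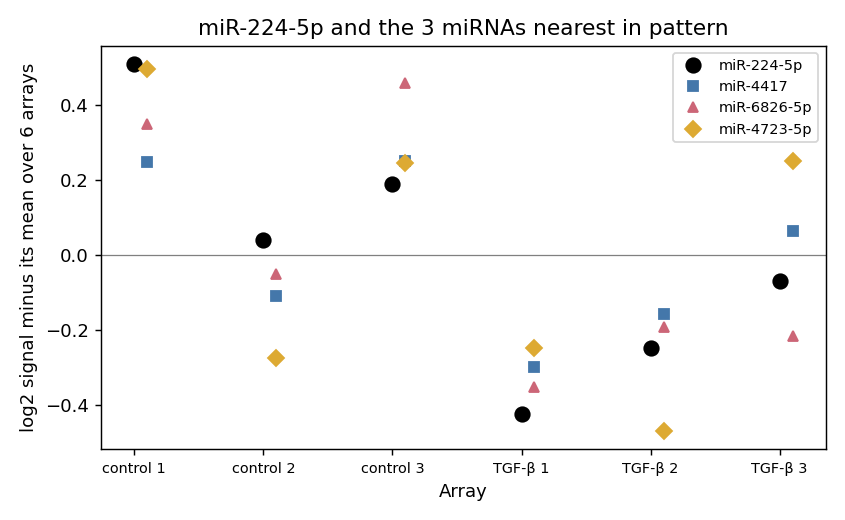
The log2 signal of miR-224-5p and of the 3 miRNAs nearest to it in pattern on each array, minus its mean over the 6 arrays. The 3 control points of miR-224-5p lie above 0 and the 3 TGF-β points below, while miR-4417 and miR-4723-5p each have a control point below 0 and a TGF-β point above it.

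Of the 146 probes matched to the X chromosome, 18.5% were detected on at least 1 array, against 19.9% of all human probes, and 4 groups of X-chromosome clusters were looked at by name. The 4 arms of miR-105 and miR-767, which lie within GABRA3, the gene of another GABA-A receptor subunit, were detected on no array. None of the 14 listed arms of the Xp11 cluster, which includes miR-532 and miR-502, was detected on any array. In the Xq26 cluster of miR-424 and miR-503, 1 of 9 arms, miR-424-5p, was detected on 1 array, control array 3. Of 30 probes of the Xq27 clusters, 4 were detected on at least 1 array and 1, miR-513a-5p, on all 6. MiR-513a-5p was at 20.03, 27.7 and 40.4 in the control group and at 28.4, 28.7 and 64.1 in the TGF-β group, a log2 change of 0.41 (limma adjusted p = 0.99, standard error 0.38), and the groups overlapped. Of the 14 expressed X-chromosome miRNAs, 8 had a log2 change below 0, against 48.8% of all expressed miRNAs. With no overlap, 1 was lower, against 2.8% of all, and this was miR-224-5p itself, chosen for that property. Another 2, miR-222-3p and miR-361-5p (names chosen after their values were seen), were higher with no overlap, against 7.14%. With each array scaled on its own detected probes and in the authors' values, none of those with a value was lower or higher with no overlap. The median log2 change of the 14 was -0.029, against 0.014 for all expressed miRNAs, and without scaling, which shifts all miRNAs alike, they were 0.61 and 0.66.

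MiRNAs with known links to the TGF-β pathway were listed beside miR-224-5p, with results of these data already known. Of the 20 on the list, 19 had a probe under the listed name and 15 were expressed. None passed the adjusted p in limma (0 of 15). No member of the list was lower with no overlap, against 2.8% of all expressed miRNAs, and 5 were higher with no overlap, against 7.14%. The median log2 change of the 15 was 0.13, against 0.014 for all expressed miRNAs, and it was -0.088 against -0.20 with each array scaled on its own detected probes and -0.13 against -0.24 in the authors' values. The list thus lay 0.11 above the median of all in each of these, while its sign followed the scaling. With own detected probes 0 of the 15 were higher with no overlap, against 0.311% of all, and in the authors' values 0, against 0.33%. The count was 4 with the 75th percentile, against 3.73% of all, and 4 with quantile normalization, against 5.90%. With no scaling it was 3, against 5.59%. The members with the widest changes were miR-181b-5p, of the miR-181 family, at 0.77 (standard error 0.21), its relative miR-181a-5p, at 0.77 (standard error 0.18), miR-146a-5p, an inhibitor of inflammatory signalling, at 0.60 (standard error 0.19), and miR-23a-3p, at 0.50 (standard error 0.18). Their limma adjusted p values were 0.42, 0.42, 0.45 and 0.67, and for each of these 4 the TGF-β arrays lay above the control arrays with the common probes, though the log2 change alone stayed above 0 in all 6 scalings tried. MiR-21-5p, which TGF-β raises in vascular smooth muscle cells through processing of its precursor, had a log2 change of -0.095 (limma adjusted p = 0.99, standard error 0.26), which is 0.11 below the median of all expressed miRNAs both with the common probes and with no scaling, where the change itself was 0.55.

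The markers of other cells were checked by the same rule. All 6 epithelial miRNAs with a probe under the listed name, those of the miR-200 family and miR-205-5p, were expressed. Their summed signal was 413 to 483 on the control arrays and 522 to 543 on the TGF-β arrays. MiR-429 was not detected on TGF-β array 1 and was given the lowest signal detected there. Most of this sum came from miR-200c-3p, at a log2 change of 0.40, and from miR-205-5p and miR-200b-3p, at 0.13 and 0.30, while miR-141-3p was at -0.65, miR-200a-3p at -0.078 and miR-429 at 0.048. None of the 6 passed the adjusted p in limma. With each array scaled on its own detected probes the sums overlapped between the groups, at 608 to 1002 and 639 to 1095. They also overlapped with the 75th percentile, with no scaling and in the authors' values, where 5 of the miRNAs had a value. With quantile normalization they did not overlap. The liver marker miR-122-5p, the 3 stromal markers and the 2 striated muscle markers with probes were detected on no array. Of 5 blood markers, 1 was detected, miR-223-3p, on TGF-β array 3 alone, at a normalized signal of 12.4. This is the spot beside miR-224-5p described above.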

How the data were processed

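MiRNAs were measured on 3D-Gene Human miRNA Oligo chips in 3 control samples and 3 samples treated with TGF-β, grouped by the sample labels. The authors deposited for each array the scanner output, with the median intensity and the local background of every spot on a linear scale, joined from 3 scanner gains per the file headers. They also deposited a table of normalized intensity, made with 3D-Gene Extraction software by setting the median of each array to 25. Detection, scaling and expression were decided as given in the report. Between 0 and 2 human spots per array had a failed flag and were left out. An undetected probe was given the lowest signal detected on its array before log2 was taken. Groups were compared with limma 3.58.1 (lmFit and eBayes, no block) under R 4.3.3 and Benjamini-Hochberg adjustment. The limma step was tested on simulated data.

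The labels give both groups replicate numbers. Deviations from the group means correlated by 0.12, 0.24 and 0.33 between arrays numbered 1, 2 and 3 (across 322 miRNAs). Values for arrays of different numbers are not given, so these do not show a pairing, and no source says what a number marks. No pairing was used in the main fit. The replicate block is an alternative. Of the 2555 probes, 2235 matched a RefSeq name. The number of arrays limits the precision. The genes named were the 4 members, expressed seed relatives, the 3 miRNAs nearest in pattern, and the up to 4 expressed members of each list with the largest log2 change; others were named after their values were seen. The members and lists were chosen with earlier results of these data known. Alternatives are given in the closing section.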

Additional observations from a re-analysis of the deposited data

How the results depend on the processing

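All values are log2 changes of miR-224-5p or counts, and the cause of a shift was not tested unless stated. The log2 change was -0.49 and was below 0 in 17 of the 18 other settings that gave a value. It turned to 0.15 with no scaling. It was -0.75 in the authors' values, -0.74 with chip 1 alone and -0.71 when each array was scaled on its own detected probes. With normexp and an offset of 50 it was -0.042. That setting corrects by the local background, which was close to the spot of miR-224-5p, and its offset shrinks the changes of dim probes. Which of these made the change smaller was not tested. Leaving out single arrays gave values from -0.63 (without TGF-β replicate 3) to -0.37 (without control replicate 1). The groups did not overlap in 11 of the 15 settings with values of their own, but the pair was chosen for that property. Of the 11, 6 left out a single array and chip 1 alone used a part of the same arrays, so these mostly repeat it. Without the replacement of undetected probes the values of miR-224-5p stayed as they were. The count is thus no independent support. The groups overlapped in the authors' values, with no scaling, with normexp and when each array was scaled on its own detected probes. Subtraction of the No Probe spots, chosen after the data were seen, gave -0.40 with no overlap, and subtraction of the local background gave no value.

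The replicate block left the log2 change at -0.49 (standard error 0.22), as it must where both groups hold the same numbers. With it 0 miRNAs passed the adjusted p in limma, and 31 had an unadjusted p under 0.05. The block changed no call. The number past the adjusted p was 0 in every other limma setting except without TGF-β replicate 3, where miR-629-5p passed (adjusted p = 0.037, named after its value was seen), so it ranged from 0 to 1 with arrays left out, and it was 1 by the methods' t-test. The number lower with no overlap was 9, and 22 with the 75th percentile, 15 with quantile normalization, 14 for detection on at least 1 array, 4 with local background, 2 in the authors' values and with own detected probes, 0 with no scaling and 101 with chip 1 alone. With arrays left out it ran from 12 to 54, where fewer arrays overlap less by construction. The median log2 change was -0.20 with own detected probes, -0.24 in the authors' values, -0.10 with the 75th percentile and -0.24 with local background. The share of changes below 0 was 48.8%, and 69.3% with the 75th percentile, 79.5% with own detected probes, 63.5% with local background and 3.11% with no scaling. The other 3 arms gave no value in any setting, since they were not detected at 2 SD.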
